A study of Mus musculus with 6 samples.

Results

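The genes described here encode the signalling machinery of the T cell receptor, from the CD3 chains at the membrane to the kinases, adaptors, phosphatases and ubiquitin ligases that act on the receptor's signal. The members were 42 genes listed by name, and 40 of them were measured on a row (transcript cluster) of their own among 30176 genes with such a row. Fyb, the adaptor ADAP, shares its row with another gene, and Lck, the kinase that phosphorylates the CD3 chains, has no row named for it in the annotation used, so neither was analysed as a member. For Cbl, which has more than 1 row, the row with the highest mean was used. The study asked how regulatory T cells (Tregs) that lack the transcription factor CREB differ in gene expression. CD4+CD25+Nrp1+ Tregs were enriched from spleens with magnetic beads, sorted by flow cytometry and profiled on 6 arrays, 1 per animal. All animals were untreated male B6 mice aged 10 to 12 weeks. The 3 CREB-KO arrays came from Foxp3creCREBfl/fl mice, in which Cre is expressed from the Foxp3 gene and the floxed Creb1 alleles are deleted in cells that express Foxp3. The 3 control arrays are labelled CREB-WT, and per the methods these mice carried the floxed alleles without Cre, so that in every difference below the Cre allele goes along with the deletion.

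Binding of peptide and MHC to the T cell receptor brings a coreceptor-bound kinase to the CD3 chains, whose phosphorylated tyrosine motifs (ITAMs) recruit the kinase ZAP-70. ZAP-70 phosphorylates the scaffolds LAT and SLP-76, from which phospholipase C-gamma1 and Ras guanine exchange factors open the calcium, NF-kB and MAP kinase branches. Phosphatases, diacylglycerol kinases and ubiquitin ligases limit the signal. Tregs need T cell receptor signals for their development in the thymus and for suppressive function.

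Values are log2 expression as deposited, differences are CREB-KO minus CREB-WT with the standard error (SE), and a difference of 1 is read as 2-fold. The study's limits were a fold of 1.5, or 0.585 on the log2 scale, and an unadjusted p of 0.05, and a gene past both is called past the study thresholds. The array medians over all rows were 4.55, 4.56 and 4.58 on the CREB-KO arrays and 4.48, 4.53 and 4.49 on the CREB-WT arrays. Every CREB-KO median thus lay above every CREB-WT median. Arrays correlated at 0.985 to 0.992 over genes. The targeted gene, Creb1, was higher on the CREB-KO arrays (14.10, 14.39 and 14.79) than on the CREB-WT arrays (13.30, 13.94 and 13.34). Its row pools probes along the transcript, and where they lie relative to the deleted exons is not known here, and Creb1 therefore gives no check of the genotype. CREB-KO and CREB-WT below mean the arrays labelled so. Markers of other cell types were mostly lower on average in CREB-KO. Of 15 listed macrophage and monocyte markers 14 were measured, and 14 of 14 were below 0, by a median of 1.04 on the log2 scale, although the groups overlapped in each. Their mean level ran from 5.47 to 7.98 on the CREB-KO arrays, highest on replicate 1, and from 6.62 to 8.43 on the CREB-WT arrays, lowest on replicate 3. Of the other lists, 9 of 11 B cell markers, 7 of 9 CD8 and NK cell markers and 6 of 7 dendritic cell markers were below 0. The medians were -0.09, -0.19 and -0.21. Below 0 were also 12377 of all 30176 genes and 7255 of the 15088 above the median level. Mean levels over the 6 arrays ran from 3.77 to 10.12 for B cell markers. For CD8 and NK cell markers they ran from 4.65 to 10.63, and for dendritic cell markers from 4.06 to 6.45. The median gene lay at 4.79, so part of these markers lay near or below it. The dendritic cell marker Itgax (5.28 against 5.87) was lower past the study thresholds (-0.59, unadjusted limma p 0.0412). The groups did not overlap for it, for the B cell marker Cd79a (-0.51) or for Prf1 (4.68 against 5.13), which encodes perforin (-0.45). These were 1 of 7, 1 of 11 and 1 of 9 markers of their lists. Lower without overlap were 3.73% of all genes and 5.08% of those above the median level. The part of other cell types in the differences below was not tested beyond a fit with the macrophage level. The 7 measured T cell markers, all of them members, had a mean level of 14.82 to 15.14 in CREB-KO and 14.99 to 15.19 in CREB-WT. Cd247 lay far below that mean, at 9.31 and 9.70. Of 9 listed Treg markers 5 were above 0 and 4 below, with a median of 0.17. The list holds neither Foxp3 nor Nrp1 and was chosen with earlier results of these data known. Nt5e was higher past the study thresholds (1.07, unadjusted limma p 4.8e-05, adjusted p 0.725), without overlap. Il2ra (-0.45, unadjusted limma p 0.0487) and Lrrc32 (-0.93, unadjusted limma p 0.12) were lower on average, with overlapping groups. In bulk samples fewer cells of a type and less RNA per cell cannot be told apart.

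The members lay on both sides of 0, and for 12 of 40 the groups did not overlap. Of the 40 measured, 16 were above 0 and 24 below. Above 0 were 17799 of all 30176 genes and 7833 of the 15088 above the median level. The median difference of the members was -0.04, against 0.04 over all genes. That median was 0.055 without CREB-KO replicate 1, -0.14 without CREB-KO replicate 2 and -0.12 with quantile normalization. The median absolute difference was 0.208 for the members, 0.122 for all genes and 0.156 for genes above the median level. Zap70 and Sla2 were higher past the study thresholds, 2 of 40, where 0.915% of all genes were called in that direction. On the rows used 0 members were lower, where 0.666% of all genes were. The other row of Cbl, described below, was lower past the study thresholds. When each array was centred on its median gene, Sla2 left the calls, and the split over all genes went from 276 higher and 201 lower to 206 and 264. The calls depended on single arrays, with 5 members higher without CREB-KO replicate 1, 4 without CREB-WT replicate 3 and 1 without CREB-KO replicate 3, and with 1 lower member, Trat1, on omission of either CREB-KO replicate 3 or the first CREB-WT array. By limma and by the methods' t-test, 0 of all genes passed an adjusted p of 0.05; the limma adjusted p ran from 0.850 to 0.998 for the members, and 8 members had an unadjusted p under 0.05, where 5.63% of all genes did. For 6 members the lowest CREB-KO array exceeded the highest CREB-WT array (Zap70, Sla2, Themis, Ptpn22, Ubash3a and Cd3g), where 7.86% of all genes did so. For another 6 the highest CREB-KO array was under the lowest CREB-WT array (Trat1, Cd247, Stim1, Sos1, Dgkz and Ptprc), where 3.73% of all genes did so. Among the 15088 genes above the median level, where every member lies, these shares were 5.83% and 5.08%, with 1.49% called higher and 1.25% lower and 7.39% with an unadjusted p under 0.05. With 3 arrays per group the smallest exact permutation p for a single gene is 0.10. In a fit chosen after seeing the data, a term for the macrophage marker level was added. The differences were then 0.61 for Zap70, 0.44 for Sla2, 0.45 for Themis, 0.47 for Ptpn22, 0.33 for Ubash3a and 0.21 for Cd3g. For the 6 lower members without overlap they were -0.55 (Trat1), -0.45 (Cd247), -0.43 (Stim1), -0.25 (Sos1), -0.23 (Dgkz) and -0.18 (Ptprc). That level was itself lower on average in CREB-KO, so this fit cannot tell it apart from genotype.

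**Figure D1:**
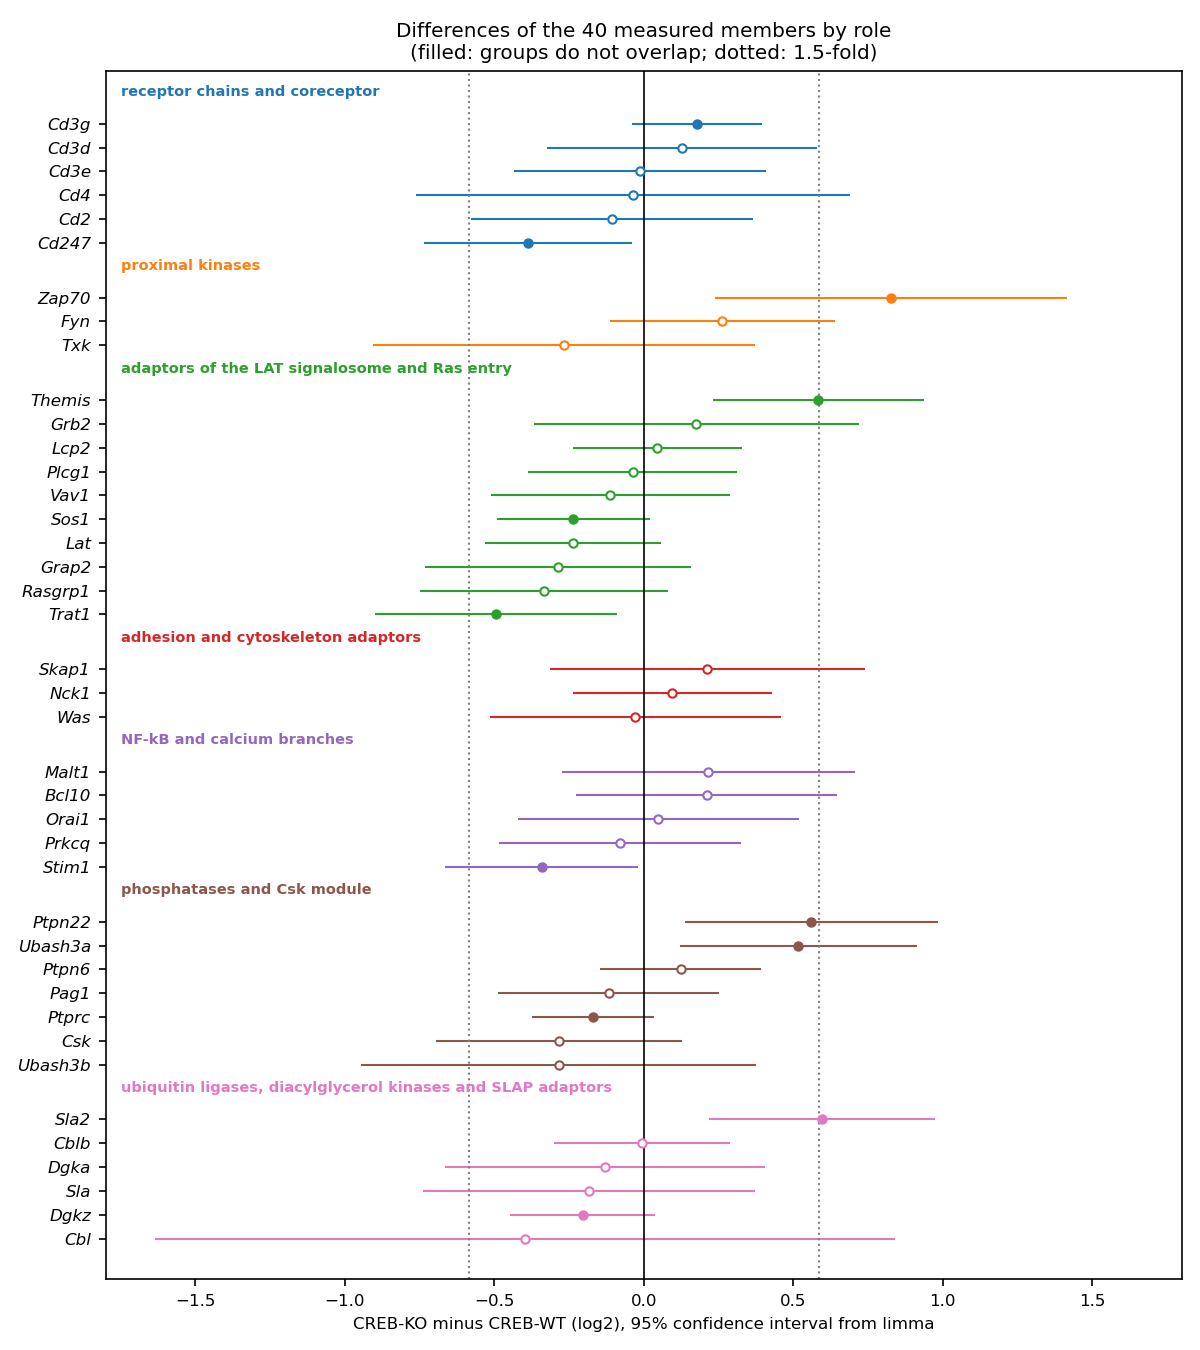
Difference between CREB-KO and CREB-WT (log2, horizontal axis) for the 40 measured members, grouped by role, with the 95% confidence interval from limma on 3 arrays per group. Filled points are the 12 members whose groups do not overlap, and dotted lines mark the 1.5-fold limit; Zap70 and Sla2 lie beyond the upper line and no member lies beyond the lower one.

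Of the 6 genes of receptor chains and coreceptors, 2 were above 0 and 4 below, and 0 passed the study thresholds. Cd3e, which encodes an ITAM-bearing chain of the complex, was 16.78, 17.36 and 17.32 on the CREB-KO arrays and 17.11, 17.15 and 17.23 on the CREB-WT arrays. CREB-KO replicate 1 was lowest and the groups overlapped, with a difference of -0.01 ± 0.17 and a 95% interval of -0.44 to 0.41. Cd3d was 16.49, 16.56 and 16.46 in CREB-KO and 16.27, 16.08 and 16.77 in CREB-WT, a difference of 0.13 ± 0.19 within overlapping groups. It was -0.019 without CREB-WT replicate 2 and 0.33 without CREB-WT replicate 3. Cd3g was 15.66, 15.59 and 15.56 in CREB-KO against 15.39, 15.47 and 15.41 in CREB-WT. The groups of Cd3g separated by a small margin, at 0.18 ± 0.09 (unadjusted limma p 0.094). By the methods' t-test its unadjusted p was 0.0105 and its adjusted p 0.85. These 3 genes are neighbours on chromosome 9 in RefSeq (GRCm38.p6). Cd247, which encodes the zeta chain that carries most of the ITAMs of the complex, went the other way. It was 9.17, 9.35 and 9.42 in CREB-KO and 9.89, 9.47 and 9.74 in CREB-WT. Every CREB-KO array lay below every CREB-WT array, by a mean of -0.39 ± 0.14 (unadjusted p 0.0338, adjusted p 0.862), short of the fold limit.

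Cd4, the coreceptor by which the cells were sorted, was 12.98, 14.09 and 13.98 in CREB-KO and 13.68, 13.61 and 13.86 in CREB-WT. CREB-KO replicate 1 stood about 1 log2 unit below the other CREB-KO arrays, and the difference of -0.04 ± 0.30 turned to 0.32 without it. Cd2, an adhesion receptor that binds CD58 or, in mice, CD48, was 16.10, 16.78 and 16.62 in CREB-KO and 16.55, 16.51 and 16.76 in CREB-WT. CREB-KO replicate 1 was again the lowest of the 6 arrays, the groups overlapped, and the difference was -0.11 ± 0.19. That array had the lowest mean of all members, at -0.13 relative to each gene's mean over 6 arrays, where the other arrays ran from -0.07 to 0.11; its Treg markers, at -0.46, were also the lowest, and its macrophage markers, at 0.83, were exceeded by CREB-WT replicate 1 only.

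**Figure D2:**
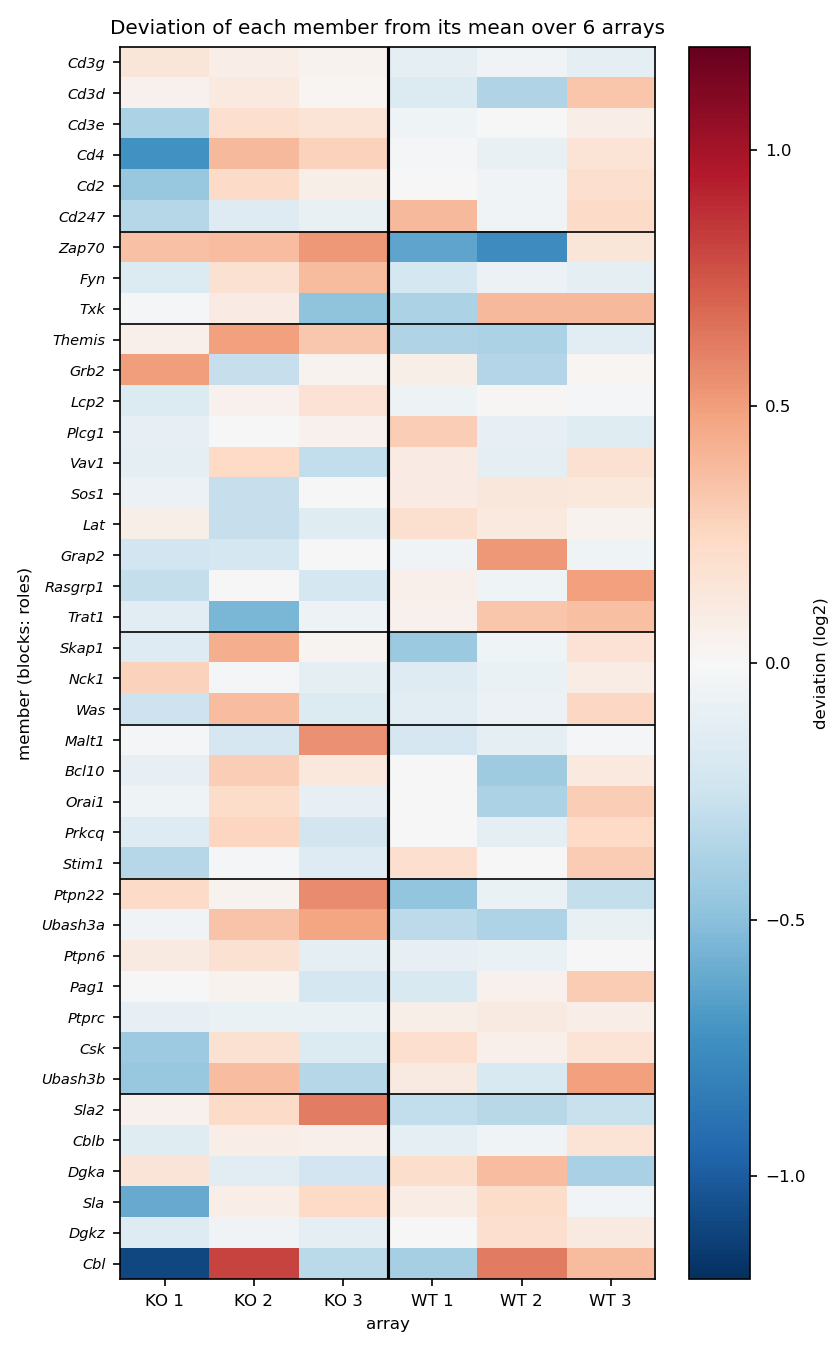
Deviation of each of the 40 members (rows, in blocks by role) from its own mean over the 6 arrays (columns), in log2 units, from blue (below) to red (above). CREB-KO replicate 1 is low for Cd4, Cd3e, Cd2, Sla and Cbl, while Zap70 is low on CREB-WT replicates 1 and 2 only.

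Zap70, which encodes the kinase that docks on phosphorylated ITAMs, had the largest difference of the 40 members. It was 9.82, 9.84 and 9.99 on the CREB-KO arrays and 8.83, 8.72 and 9.61 on the CREB-WT arrays. The CREB-KO arrays lay close together above all CREB-WT arrays, and CREB-WT replicate 3 was nearer to the CREB-KO arrays than to its own group. The mean was 9.88 ± 0.09 (SD, n = 3) against 9.05 ± 0.49, a difference of 0.83 ± 0.24 or 1.77-fold (95% interval 0.24 to 1.42, unadjusted limma p 0.0135, adjusted p 0.856). Zap70 was past the study thresholds in 15 of 16 alternatives, with 0.66 to 1.11 on leaving out 1 array. The exception was the fit without both arrays numbered 1, chosen after the data were seen, at 0.75 with an unadjusted p of 0.0762. Without CREB-WT replicate 3, the array with the lowest macrophage level of its group, the difference of Zap70 was 1.11. A link between that level and Zap70 was not tested beyond the covariate fit.

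Because the deleted gene encodes a factor that binds the cAMP response element (CRE), the promoters of the members were searched for its letters. The full element TGACGTCA, a palindrome that reads the same on both strands, occurred in 1.79% of 32851 RefSeq promoter windows of 300 bases (GRCm38.p6, 250 before and 50 after a transcript start) and in 2.03% of 27025 genes. Of the members, 34 measured genes had a window, and 1 of them, Zap70, held the full element, in the first of its starts. It lay 18 to 11 bases before that start, and the other starts of Zap70 held none. Which start the cells use is not known from these arrays. The shorter TGACG, searched on both strands and contained in each full element, occurred in the windows of 8 of the 34 members (Cd3e, Dgka, Nck1, Orai1, Sla2, Stim1, Txk and Zap70), against 23% of all genes. The 250 bases before the first start are shown for the members with the largest differences above 0, with the full element of Zap70 and the shorter match of Sla2 in capitals, the latter read as CGTCA because it is on the opposite strand, 53 to 49 bases before the start. Themis, shown for comparison, held neither. A match is a description of the letters and not evidence of binding.
Zap70, chr1:36761548-36761797, plus strand: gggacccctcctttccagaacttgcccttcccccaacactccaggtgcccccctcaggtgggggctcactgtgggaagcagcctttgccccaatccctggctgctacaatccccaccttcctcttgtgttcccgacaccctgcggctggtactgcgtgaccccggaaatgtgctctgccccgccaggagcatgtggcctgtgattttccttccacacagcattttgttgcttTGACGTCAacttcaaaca
Sla2, chr2:156887222-156887471, minus strand: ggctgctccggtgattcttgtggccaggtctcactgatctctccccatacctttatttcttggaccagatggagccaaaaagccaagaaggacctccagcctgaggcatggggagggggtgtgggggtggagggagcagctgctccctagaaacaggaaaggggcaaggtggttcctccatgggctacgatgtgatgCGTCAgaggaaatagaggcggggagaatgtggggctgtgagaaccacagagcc
Themis, chr10:28668110-28668359, plus strand: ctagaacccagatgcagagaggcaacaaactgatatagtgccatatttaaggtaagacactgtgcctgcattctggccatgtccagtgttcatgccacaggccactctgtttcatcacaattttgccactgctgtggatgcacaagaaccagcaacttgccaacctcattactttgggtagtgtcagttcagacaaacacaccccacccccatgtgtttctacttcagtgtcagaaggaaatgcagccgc

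The other measured kinases did not pass the study thresholds. Fyn, a Src family kinase, was 13.08, 13.43 and 13.62 in CREB-KO and 13.04, 13.17 and 13.13 in CREB-WT, a difference of 0.26 ± 0.16 within overlapping groups (unadjusted p 0.141). Leaving out CREB-KO replicate 1 gave 0.41 (unadjusted limma p 0.0173) and leaving out CREB-KO replicate 3 gave 0.14, and the value was 0.10 with the macrophage covariate. Txk, a Tec family kinase, was 8.57, 8.69 and 8.11 in CREB-KO and 8.21, 8.98 and 8.98 in CREB-WT. The lowest arrays were CREB-KO replicate 3 and CREB-WT replicate 1, and the difference was -0.27 ± 0.26.

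Among 10 adaptors and enzymes around LAT and Ras, 3 were above 0 and 7 below. Themis, an adaptor required for thymocyte selection that binds the phosphatase SHP-1, was 9.57, 10.01 and 9.83 in CREB-KO and 9.15, 9.13 and 9.38 in CREB-WT. The groups did not overlap, and the difference of 0.58 ± 0.15 (unadjusted p 0.00654, the smallest of all members, adjusted p 0.850) lay just under the fold limit. Leaving out CREB-KO replicate 1 (0.70) or CREB-WT replicate 3 (0.67) took it past that limit. Trat1, which encodes the transmembrane adaptor TRIM that associates with the receptor, was 10.60, 10.19 and 10.68 in CREB-KO and 10.79, 11.07 and 11.09 in CREB-WT. It was the lowest of the members, at -0.49 ± 0.17 (unadjusted p 0.0243, adjusted p 0.856), and reached -0.59, past both limits, when either CREB-KO replicate 3 or CREB-WT replicate 1 was left out. Sos1, a Ras guanine exchange factor, was 8.68, 8.48 and 8.74 against 8.85, 8.88 and 8.87. Its CREB-WT arrays were nearly identical and above every CREB-KO array, with a difference of -0.24 ± 0.11 (unadjusted p 0.0646).

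The scaffold Lat differed by -0.24 ± 0.12 and the diacylglycerol-gated Ras activator Rasgrp1 by -0.33 ± 0.17, both with overlapping groups. Lcp2, which encodes SLP-76, differed by 0.04 ± 0.12, the phospholipase gene Plcg1 by -0.04 ± 0.14 and the guanine exchange factor Vav1 by -0.11 ± 0.17. For Grb2 and Grap2, adaptors of the same family, the differences were 0.18 ± 0.23 and -0.29 ± 0.18.

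Adaptors of adhesion and the cytoskeleton, Nck1, Skap1 and Was, differed by -0.03 to 0.21, and the groups overlapped in each. Was, which encodes an activator of actin polymerisation, is the 1 member on the X chromosome, where 34 annotated genes separate it from Foxp3, the gene that carries Cre. It was 9.79, 10.41 and 9.87 in CREB-KO and 9.90, 9.97 and 10.29 in CREB-WT, a difference of -0.03 ± 0.20 (95% interval -0.52 to 0.46). CREB-KO replicate 2 and CREB-WT replicate 3 were the highest arrays.

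Of 5 genes of the NF-kB and calcium branches, Stim1 alone separated the groups. Stim1, the calcium sensor of the endoplasmic reticulum, was 8.40, 8.73 and 8.60 in CREB-KO and 8.95, 8.75 and 9.05 in CREB-WT. The gap between CREB-KO replicate 2 and CREB-WT replicate 2 was small, and the difference was -0.34 ± 0.13 (unadjusted p 0.0404, adjusted p 0.872), short of the fold limit. Orai1, the channel that STIM1 opens, differed by 0.05 ± 0.19. Prkcq, a protein kinase C that acts upstream of NF-kB, differed by -0.08 ± 0.17. Bcl10 and Malt1, whose products act together upstream of NF-kB, differed by 0.21 ± 0.18 and 0.22 ± 0.20.

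Inhibitors of the receptor's signal lay on both sides of 0. Sla2, which encodes the adaptor SLAP-2 that brings the ubiquitin ligase CBL to the receptor complex and to ZAP-70, was 10.40, 10.58 and 10.96 in CREB-KO and 10.05, 10.02 and 10.08 in CREB-WT. The CREB-WT arrays were nearly equal and every CREB-KO array lay above them, highest in replicate 3. The difference of 0.60 ± 0.16, or 1.51-fold (95% interval 0.22 to 0.97, unadjusted p 0.00812, adjusted p 0.850), passed the study thresholds by a narrow margin. It was lost on omission of CREB-KO replicate 3 (0.44) or CREB-WT replicate 2 (0.58), with arrays centred on the median gene (0.55), with quantile normalization (0.54) and with the macrophage marker level as a covariate (0.44), and the sign was the same in 16 of 16 alternatives. CREB-KO replicate 3 was also the array with the lowest macrophage level, and a link between that level and Sla2 was not tested beyond the covariate fit. Sla, the paralogue that encodes SLAP, differed by -0.18 ± 0.23 with overlapping groups.

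Ptpn22, a phosphatase that dephosphorylates LCK and ZAP-70, was 13.15, 12.96 and 13.49 in CREB-KO and 12.45, 12.84 and 12.64 in CREB-WT. All CREB-KO arrays were above all CREB-WT arrays, by 0.56 ± 0.18 (unadjusted p 0.0173, adjusted p 0.856), short of the fold limit. Omission of CREB-KO replicate 1 (0.59), CREB-KO replicate 2 (0.68) or CREB-WT replicate 2 (0.66) put it past the study thresholds. Ubash3a, which encodes STS-2, a suppressor of receptor signalling, was 11.20, 11.58 and 11.72 in CREB-KO and 10.93, 10.87 and 11.15 in CREB-WT. CREB-KO replicate 1 lay just above CREB-WT replicate 3, and the difference was 0.52 ± 0.16 (unadjusted p 0.0185, adjusted p 0.856). It crossed both limits when CREB-KO replicate 1 (0.66) or CREB-WT replicate 3 (0.60) was omitted. Its paralogue Ubash3b, which encodes STS-1, a phosphatase of ZAP-70, differed by -0.28 ± 0.27 with overlapping groups.

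Ptprc, which encodes CD45, the phosphatase that activates Src family kinases, showed the tightest replicates. It was 16.11, 16.14 and 16.14 in CREB-KO and 16.28, 16.32 and 16.29 in CREB-WT, all above 16, the ceiling of a 16-bit scanner. The groups were clear of each other by a difference of -0.17 ± 0.08 (unadjusted limma p 0.090), far from the fold limit. By the methods' t-test the unadjusted p of Ptprc was 0.000301 and its adjusted p 0.781. Csk, the kinase that restrains Src family kinases, differed by -0.28 ± 0.17, and Pag1, the membrane adaptor of CSK, by -0.12 ± 0.15. Ptpn6, which encodes SHP-1, differed by 0.12 ± 0.11.

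Dgkz, a kinase that removes diacylglycerol, was 9.56, 9.67 and 9.59 in CREB-KO and 9.71, 9.91 and 9.82 in CREB-WT. The groups did not overlap, at -0.20 ± 0.10 (unadjusted p 0.0858), whereas the related Dgka differed by -0.13 ± 0.22 within overlapping groups. The ubiquitin ligase gene Cblb had a 95% interval of -0.30 to 0.29 around 0. Cbl was the most variable member, at 14.16, 16.06 and 14.93 in CREB-KO and 14.85, 15.87 and 15.63 in CREB-WT, a difference of -0.40 ± 0.51. Its other row behaved differently, at 12.04, 12.47 and 12.40 against 13.13, 13.03 and 12.88. On that row every CREB-KO array lay below every CREB-WT array, by -0.71 ± 0.16 (unadjusted p 0.00358, adjusted p 0.671 over all rows), past the study thresholds. On the first row the 95% interval ran from -1.64 to 0.84.

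**Figure D3:**
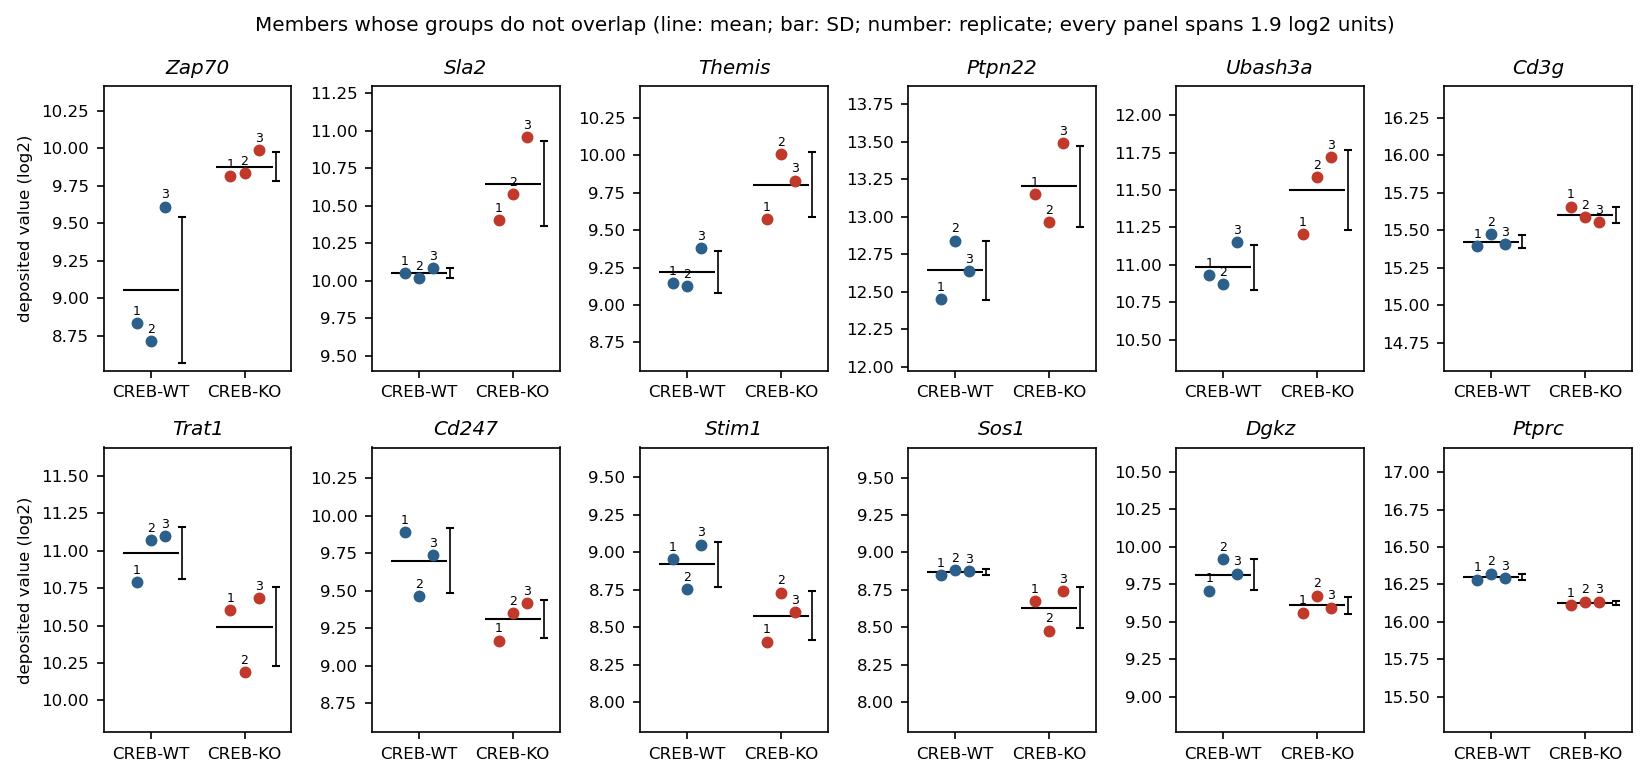
Deposited log2 value on each array (points, numbered by replicate) for the 12 members whose groups do not overlap, with the mean (line) and SD (bar) of 3 arrays per group and panels of equal height in log2 units. The upper row holds the 6 members higher in CREB-KO, led by Zap70, and the lower row the 6 members lower in CREB-KO, where Ptprc has the tightest replicates.

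Genes of the branches further down were described from lists of 123 genes, of which 109 were measured and 14 were not analysed here. Past the study thresholds 0 were higher, where 0.915% of all genes and 1.49% of those above the median level were. In the other direction 3 were lower, where 0.666% of all genes and 1.25% of those above the median level were. The median difference was -0.05. An unadjusted limma p under 0.05 was found for 11 of the 109, where 5.63% of all genes and 7.39% of those above the median level had one. Map4k1, which encodes HPK1, a kinase that limits signalling through SLP-76, was 10.50, 11.01 and 10.77 in CREB-KO and 11.32, 11.37 and 11.41 in CREB-WT. Every CREB-KO array lay below the nearly equal CREB-WT arrays, by -0.60 ± 0.15 (unadjusted p 0.00564, adjusted p 0.850), and omission of CREB-KO replicate 1 (-0.47) or CREB-WT replicate 3 (-0.58) took it under the fold limit. Phlpp1, a phosphatase of AKT, was lower with a difference of -0.70 ± 0.22 (8.16 against 8.86, unadjusted p 0.0189), and lost the call when CREB-KO replicate 1 (-0.45) or CREB-WT replicate 3 (-0.63) was omitted. Rasgrp2, an exchange factor for Rap1, was lower at -0.67 ± 0.24 (7.10 against 7.78, unadjusted p 0.0314). Its call was lost on omission of any of 4 arrays, CREB-KO replicate 2 (-0.65), CREB-KO replicate 3 (-0.46), CREB-WT replicate 1 (-0.57) and CREB-WT replicate 3 (-0.68), and with the macrophage covariate (-0.41). With that covariate Phlpp1 was -0.95 and Map4k1 -0.71, and both kept their calls.

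In the calcineurin and NFAT list 14 genes were measured, with 0 past the study thresholds and a median of 0.04. Above 0 were 10 of the 14, where 17799 of all 30176 genes and 7833 of the 15088 above the median level were. The IKK and NF-kB list (15 measured, median 0.01) and the Ras and MAP kinase list (16 measured, median -0.001) had 0 past the study thresholds as well. PI3K and AKT genes (17 measured, median -0.11), further adaptors and kinases (26 measured, median -0.10) and further negative regulators (21 measured, median -0.15) each had 1, the genes named above.

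**Figure D4:**
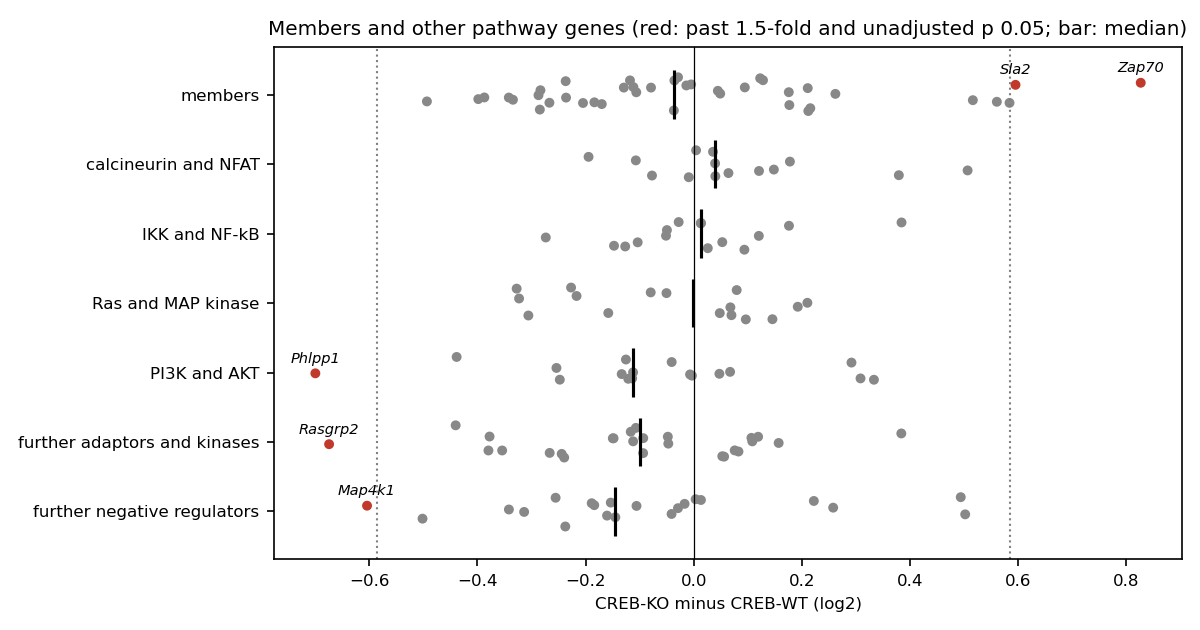
Difference between CREB-KO and CREB-WT (log2, horizontal axis) for the 40 members and for the genes of 6 further lists (1 point per gene, spread vertically for legibility, bar at the median). Red points are past the study thresholds; those among the members (Zap70 and Sla2) are higher and those in the other lists (Map4k1, Phlpp1 and Rasgrp2) are lower.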

How the data were processed

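The authors deposited 1 table of log2 expression values, 65956 rows (transcript clusters) by 6 arrays, made with RMA (background correction, normalization between arrays and a summary of probes) in Expression Console. Its version and the array's genome build are not given in the sources used here. Values ran from 1.52 to 19.93, and 1082 rows passed 16, the ceiling of a 16-bit scanner. What set the scale is thus unknown, and folds hold only if it is a true log2 scale. Of the members, Cd3d, Cd3e, Cd2, Lat and Ptprc lay above 16 on every array. The design text and the methods name different Affymetrix arrays. Genes were named through the platform annotation; 30638 rows carried exactly 1 symbol, 2176 several and 33142 none, and the row with the highest mean stood for a gene.

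Groups came from the genotype label. The comparison was limma 3.58.1 (R 4.3.3) over all 30176 genes on the values as deposited, with no filter or covariate, two-sided, with Benjamini-Hochberg adjustment over all genes. The model was tested on simulated data. Per the labels each array came from its own mouse. The number of arrays limits the precision. Every member was accounted for; values are given in full for members past the study thresholds or with groups that do not overlap and for the receptor chains, coreceptor and proximal kinases, and other pathway genes are named when past the thresholds. Members and lists were chosen with earlier results of these data known. The 16 alternatives were other tests, scalings, filters and rows, a replicate block, each array left out and, added after the data were seen, both arrays numbered 1 left out and a macrophage covariate. Promoter sequences are RefSeq's (GRCm38.p6).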

Additional observations from a re-analysis of the deposited data

Results flagged for a closer look

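The row shared by Fyb, which encodes the adaptor ADAP, and the gene model Gm7666 was outside the comparison because its signal cannot be given to 1 gene. It was 14.02, 14.01 and 14.01 on the CREB-KO arrays and 13.89, 13.98 and 13.73 on the CREB-WT arrays, so that every CREB-KO array lay above every CREB-WT array, by 0.15 ± 0.11 (SE; unadjusted limma p 0.236, adjusted p 0.922 over all rows).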

How the results depend on the processing

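Whether replicate numbers pair the arrays cannot be decided from these values. Over genes, deviations of same-numbered arrays from their group means correlated at only 0.26, -0.08 and 0.09. Macrophage markers, however, fell from replicate 1 to replicate 3 in both groups. Their mean deviations from the average of all 6 arrays were 0.83, -0.70 and -1.68 in CREB-KO and 1.28, 0.81 and -0.53 in CREB-WT. The replicate block left the calls of members at 2 higher and 0 lower. Over all genes the block gave 369 higher and 314 lower, against 276 and 201 without it. The count of members higher past the study thresholds was 1 with arrays centred on the median gene and with quantile normalization. With the macrophage covariate it was also 1. It ran from 1 (without CREB-KO replicate 3) to 5 (without CREB-KO replicate 1) on leaving out 1 array. The count lower ran from 0 to 1 (Trat1, without CREB-KO replicate 3 and without the first CREB-WT array) and was 1 without both arrays numbered 1. Over all genes, leaving out 1 array gave 276 to 447 higher and 224 to 506 lower. Members with all CREB-KO arrays above all CREB-WT arrays numbered 6 to 11 on leaving out 1 array and 12 without both arrays numbered 1, and those below 7 to 11, where smaller groups separate more often by construction. The median difference over members ran from -0.14 (without CREB-KO replicate 2) to 0.055 (without CREB-KO replicate 1) on leaving out 1 array. Differences near 0 changed sign: Cd3e ran from -0.12 to 0.17 and Cd4 from -0.24 to 0.32 on leaving out 1 array, Cd3d from -0.019 to 0.33, and without both arrays numbered 1 Cd3e was 0.14 and Cd4 0.30. The methods' t-test called 145 genes higher and 107 lower, against 276 and 201 by limma, with 0 at an adjusted p of 0.05 by either; 1699 genes had an unadjusted limma p under 0.05. The t-test kept Zap70 and Sla2 but not Phlpp1 (p 0.0538) or Rasgrp2 (p 0.0791). Where a value moved, the cause was not tested. The counts of members whose groups do not overlap have no counterpart in the fits with a block or covariate or over all rows.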
